A study of Mus musculus with 2 samples.

Results

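Oxidative phosphorylation genes were followed in brain immune cells of control and Arpc4-deficient mice. Gene rows were taken by symbol: those beginning with mt-, Ndufa, Ndufb, Ndufc, Ndufs, Ndufv, Uqcr, Cox4i, Cox5, Cox6, Cox7, Cox8 or Atp5, together with Sdha, Sdhb, Sdhc and Sdhd, and without symbols that contain -ps. This gave 106 of the 32285 genes in the tables. Of these, 13 are encoded by mitochondrial DNA and 93 by nuclear DNA. The nuclear genes fall into 36 of complex I, 4 of complex II, 8 of complex III, 20 of complex IV, 17 of complex V and 8 Ndufaf genes, which encode factors that assemble complex I. Ndufb1-ps was the 1 row that matched the names and was left out, and the ATPase inhibitor Atp5if1 was not analysed here.

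Oxidative phosphorylation takes place in the inner mitochondrial membrane. Complexes I and II pass electrons from NADH and succinate to ubiquinone, complex III passes them on to cytochrome c, complex IV passes them to oxygen, and complex V, the ATP synthase, uses the proton gradient that complexes I, III and IV build up. Mitochondrial DNA is transcribed as long polycistronic RNAs that are cut into single messenger RNAs, and its genes encode core subunits of complexes I, III, IV and V, whereas the other subunits, and the whole of complex II, are encoded in the nucleus and imported. Resting microglia are known to use oxidative phosphorylation together with glycolysis, and their balance is known to shift with their state.

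The mice were littermates, 12 weeks old, and all carried floxed Arpc4 alleles (Arpc4 fl/fl). Arpc4 encodes a subunit of the Arp2/3 complex, which nucleates branched actin filaments. The 4 control mice had no Cre. The 4 Arpc4ΔCx3cr1 mice, called KO in the labels of the cells and below, also carried Tg(Cx3cr1-Cre), a transgene that drives Cre recombinase from Cx3cr1 regulatory sequence. Cre is therefore active from development on in microglia and can be active in other Cx3cr1-expressing cells, so the genotype is not one of microglia alone. The controls were male, and 1 of the KO mice was female. The labels do not say which one, but Xist, a marker of female cells, was high in KO replicate 1 alone. The paper left the female out of its single-cell analysis, whereas all 4 KO mice were used here. Viable CD45+ cells of each brain were sorted, tagged per mouse with an oligonucleotide and pooled into 1 library, prepared on 1 day, so that no batch separates the genotypes. Unique molecular identifiers (UMIs), which each stand for 1 captured RNA molecule, were counted from the 3′ ends of transcripts.

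After the filter on genes and mitochondrial UMIs, 19863 of 19864 cells were kept, and no barcode was shared between mice. Control mice held 5251527 to 11148525 UMIs on genes and KO mice 10768644 to 12878691, with median UMIs per cell of 3608 to 3723 and 3805 to 4364. Microglia-like cells numbered 995 to 2317 per control mouse and 1929 to 2143 per KO mouse. T cell-like cells numbered 21 to 47 and 28 to 51, and 5 to 16 of them per mouse held a UMI of Ncr1, a natural killer cell gene. Both classes were named from their markers, and all microglia-like clusters had at least 11 of 14 microglia markers raised over the lymphocyte and granulocyte clusters. Different clusters made up the class in the genotypes: 3 clusters held 3.19 to 3.96% KO cells and the other microglia-like clusters 81.3 to 99.8%. Another cluster, led by hemoglobin genes, was left out although microglia was its closest class, with 8 of 14 markers raised. Ms4a7 and Apoe were also among its leading genes. It held 1291 cells, 97.6% of them from KO mice, and 7.75 to 16.1% of the cells of each KO mouse. The targeted gene Arpc4 stood at 217 to 237 UMIs per 1000000 (CPM) in control microglia and at 138 to 153 CPM in KO microglia (log2 fold change -0.62, SE 0.05, n = 4 against 4 mice, edgeR adjusted p = 6.66e-06). In T cells Arpc4 did not pass the test (log2 fold change -0.29, SE 0.21, edgeR adjusted p = 0.600).

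In microglia, all 13 mitochondrially encoded genes were higher in KO mice, whereas the nuclear encoded genes were split. The share of a mouse's microglial UMIs that fell on the mitochondrially encoded genes was 0.543, 0.540, 0.595 and 0.590% in controls against 1.18, 1.06, 1.23 and 1.27% in KO mice, so that all 4 KO mice lay above all 4 controls. The means were 0.567% ± 0.029 (SD, n = 4) and 1.185% ± 0.092 (SD, n = 4), a difference of 0.618 percentage points. The share on the 85 nuclear encoded subunit genes, counted without the Ndufaf genes, was 1.03, 1.03, 1.04 and 1.01% in controls against 1.16, 1.12, 1.21 and 1.21% in KO mice. The groups did not overlap here either, but the means differed by only 0.145 percentage points, between 1.028% ± 0.011 and 1.173% ± 0.043 (SD, n = 4 each). The ratio of mitochondrially to nuclear encoded UMIs therefore ran from 0.526 to 0.583 in control microglia and from 0.949 to 1.05 in KO microglia. No test was made of these shares, since the genes were chosen with results of these data known.

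**Figure D1:**
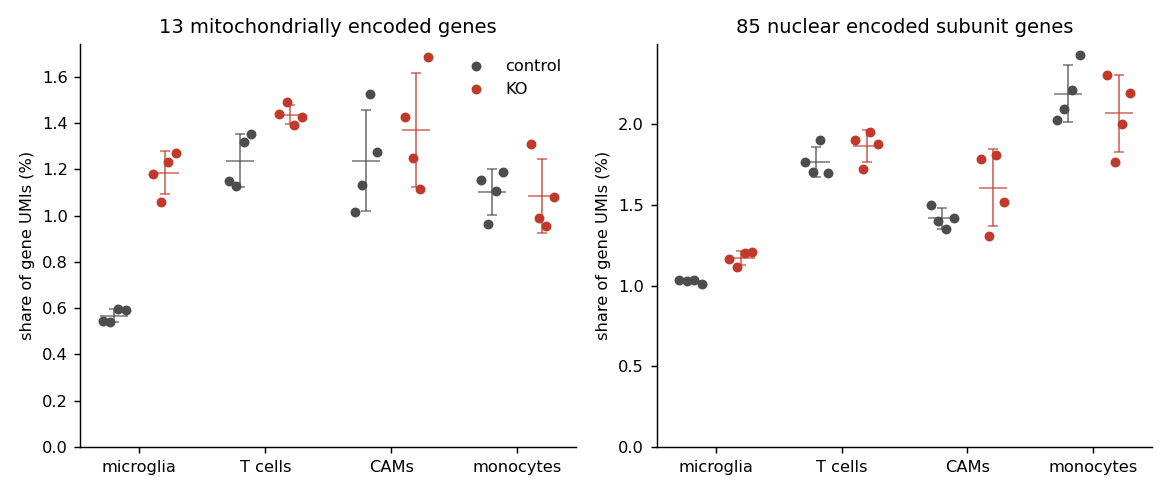
Percent of UMIs on the 13 mitochondrially encoded genes and on the nuclear encoded subunit genes, per mouse (points), in each class of cells for control and KO mice, with the mean ± SD over mice. In microglia the mitochondrial share of the KO mice (1.06 to 1.27%) lies above that of the control mice (0.540 to 0.595%), while the nuclear shares are 1.01 to 1.04% and 1.12 to 1.21%.

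Some other measures moved with genotype in the same sums. Cytoplasmic ribosomal protein genes took 6.54 to 6.94% of the UMIs of control microglia and 11.05 to 12.47% of those of KO microglia, and the 14 microglia markers took 4.46 to 4.57% and 3.30 to 3.60%. The nuclear RNAs Malat1 and Neat1 took 2.47 to 2.60% in control and 2.16 to 2.35% in KO mice. Stress genes of tissue dissociation took 0.0757 to 0.0845% and 0.0540 to 0.0891%, and here the groups overlapped. The part that these measures, the sequencing depth and the cell states play in the mitochondrial shares was not tested. With only cells of 2000 or more UMIs, and with only cells of 500 or more genes and no more than 10% mitochondrial UMIs, all 13 mitochondrially encoded genes still passed the test.

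Of the complex IV genes in mitochondrial DNA, mt-Co1 encodes the catalytic subunit that holds the site of oxygen reduction. Its level was 607, 610, 679 and 664 CPM in control microglia and 1632, 1518, 1925 and 1887 CPM in KO microglia. The lowest KO mouse held more than the highest control mouse by far, and mt-Co1 had the largest rise of the 13 (log2 fold change 1.44, SE 0.09, edgeR adjusted p = 5.72e-07). Here and below, CPM are scaled by TMM factors, adjusted p-values come from edgeR's quasi-likelihood test over all genes tested, and a gene is said to have risen or fallen where that value was under 0.05. The other core subunits of complex IV followed, with mt-Co3 at 1031 to 1122 CPM in control and 2145 to 2754 CPM in KO mice (log2 fold change 1.23, SE 0.08) and mt-Co2 at 688 to 774 and 1458 to 1865 CPM (log2 fold change 1.21, SE 0.08). Of complex III, mt-Cytb, which encodes cytochrome b, was at 970, 997, 1086 and 1046 CPM in control and 2402, 2224, 2543 and 2604 CPM in KO mice (log2 fold change 1.25, SE 0.07, edgeR adjusted p = 3.47e-07). Of complex V, mt-Atp6, a part of the proton channel, was at 621 to 669 CPM and 1273 to 1573 CPM (log2 fold change 1.18, SE 0.07).

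The 7 complex I genes of mitochondrial DNA, which encode membrane subunits of the proton pump, had smaller log2 fold changes than mt-Co1, mt-Co2, mt-Co3, mt-Cytb and mt-Atp6. mt-Nd2 had the smallest change of the 13, with 277, 265, 314 and 298 CPM in control mice and 447, 403, 462 and 462 CPM in KO mice (log2 fold change 0.62, SE 0.07, edgeR adjusted p = 3.89e-05). mt-Nd1 rose by 0.75 (SE 0.07), mt-Nd5 and mt-Nd4l by 0.93 each (SE 0.09 and 0.12), mt-Nd3 by 0.94 (SE 0.10) and mt-Nd4 by 0.98 (SE 0.07) on the log2 scale. Whether these genes differ from one another in their change was not tested. mt-Nd6, the only protein-coding gene of mitochondrial DNA on the other strand, was scarce, with 5.59 to 7.03 CPM in control and 11.3 to 14.2 CPM in KO mice, yet its log2 fold change of 0.95 (SE 0.13, edgeR adjusted p = 0.000158) lay among those of the genes on the first strand.

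No mouse of one genotype overlapped the other in any of the 13 genes. Their median log2 fold change was 0.95, their range 0.62 to 1.44 and their highest edgeR adjusted p 0.00194. Over all 12639 genes tested in microglia the median was -0.01, 22.4% were called higher and 22.8% lower (45.2% in all), and all KO mice lay above all control mice in 21.4% and below them in 22.1%. The 13 genes share transcripts and a genome, and are not 13 separate measurements of one change.

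**Figure D2:**
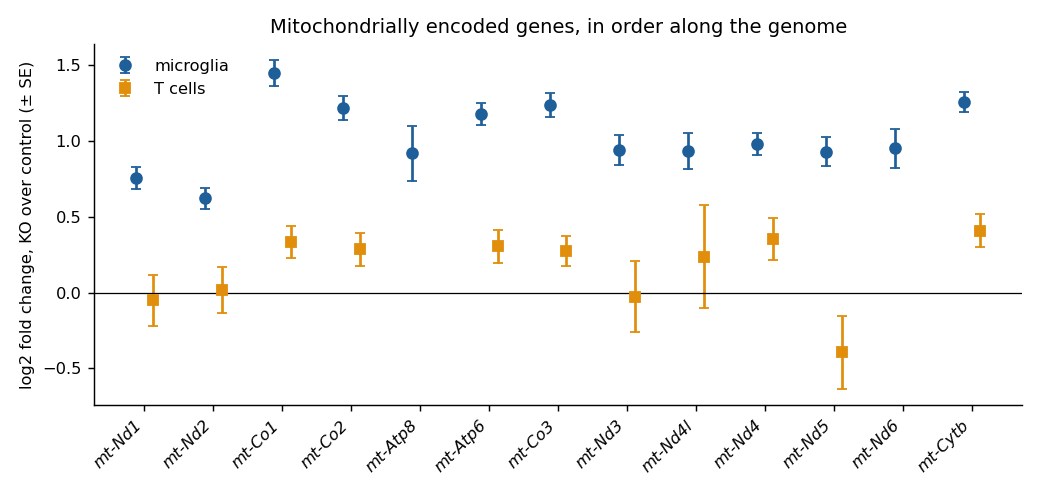
Log2 fold change (KO against control) of the 13 mitochondrially encoded genes in microglia and of the 11 that could be tested in T cells, with ± SE from edgeR. The microglial values run from 0.62 (mt-Nd2) to 1.44 (mt-Co1), and those in T cells from -0.39 (mt-Nd5) to 0.41 (mt-Cytb).

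Several of these genes overlap on the same strand, which limits what a count per gene can tell. mt-Atp8, with mt-Atp6 the other complex V gene of mitochondrial DNA, stood at only 4.09 to 5.84 CPM in control and 7.58 to 12.1 CPM in KO mice (log2 fold change 0.92, SE 0.18, edgeR adjusted p = 0.00194), next to a neighbour at 621 to 669 CPM in control mice. The genes overlap by 43 bases, and mt-Nd4l overlaps mt-Nd4 by 7 bases, so UMIs from the shared ends, and from the uncut bicistronic RNAs known for both pairs, cannot be given to 1 gene with certainty. The ends of the upstream genes are printed here as given for GRCm38 by GENCODE, on the + strand of mitochondrial DNA (chrM:7907-7969 and chrM:10147-10173), with the bases shared with the next gene in capitals. The shared run opens with the ATG of the downstream gene and closes with the stop codon of the upstream one.
mt-Atp8 end: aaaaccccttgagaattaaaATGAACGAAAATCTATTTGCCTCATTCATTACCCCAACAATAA
mt-Nd4l end: caaaatctcaacctactacaATGCTAA

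Of the 93 nuclear encoded genes, 87 had enough UMIs to be tested in microglia. Of these, 39 rose, 7 fell and 41 did not pass the test, and the median log2 fold change was 0.12. Against 22.4% of all genes, the risen genes made up a larger part of complex IV (11 of 14 tested) and complex V (11 of 17) than of complex I (12 of 36), complex III (3 of 8), complex II (0 of 4) and the Ndufaf genes (2 of 8). The 7 that fell were 4 of complex I, 1 of complex III and 2 Ndufaf genes. With each mouse left out in turn, 36 to 44 nuclear genes rose and 5 to 7 fell.

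**Figure D3:**
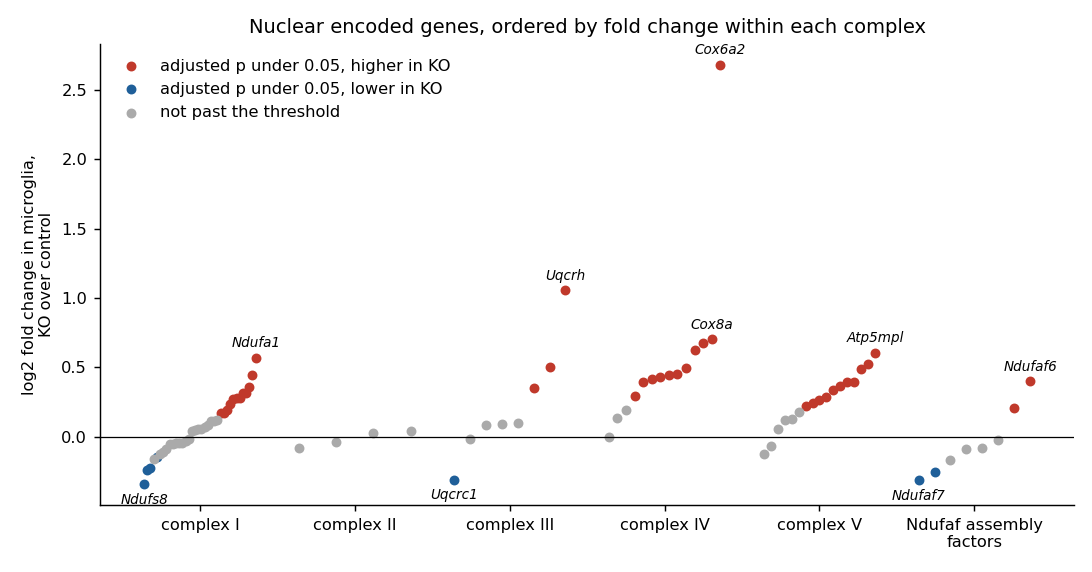
Log2 fold change (KO against control, microglia) of each nuclear encoded gene tested, by complex, with called and uncalled genes marked. Complex IV and complex V lie mostly above 0 (medians 0.44 and 0.27), complex I and complex II lie about 0 (medians 0.05 and 0.00), and Cox6a2 stands apart at 2.68.

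Among the 36 nuclear genes of complex I, the genes that rose encode accessory subunits, which surround the catalytic core. Ndufa2 (144 to 155 CPM in control and 185 to 218 CPM in KO mice) rose by 0.44 (SE 0.06) and Ndufc1 (72.2 to 76.6 and 89.2 to 103 CPM) by 0.36 (SE 0.06) on the log2 scale. The core genes behaved otherwise. Ndufs8, which encodes an iron-sulfur subunit on the path of electrons to ubiquinone, was at 80.6, 75.8, 78.5 and 80.8 CPM in control mice and 69.6, 59.4, 61.6 and 58.1 CPM in KO mice, with no overlap (log2 fold change -0.34, SE 0.06, edgeR adjusted p = 0.00135). Ndufv1, which binds NADH and FMN, was at 26.4, 25.2, 25.5 and 26.1 CPM against 22.6, 23.5, 18.8 and 22.3 CPM (log2 fold change -0.24, SE 0.08, edgeR adjusted p = 0.0332). This call was lost in 10 of 19 alternatives, with log2 fold changes between -0.29 and -0.14 and adjusted p up to 0.466, 6 of them leaving out a single mouse (any of the control mice, KO replicate 3 or KO replicate 4). The core genes Ndufs1, Ndufs3, Ndufs7 and Ndufv2, named after their values were seen, did not pass the test, with log2 fold changes of -0.16, -0.05, -0.04 and -0.03. The accessory gene Ndufa9, also named afterwards, fell by 0.22 (SE 0.06). In KO microglia the mitochondrially encoded core genes of complex I thus rose, while none of these 6 nuclear encoded core genes did.

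Complex II, succinate dehydrogenase, is the one complex without a mitochondrially encoded subunit, and it also belongs to the citric acid cycle. None of its 4 genes passed the test. Sdha, the flavoprotein subunit, was at 89.4, 87.3, 90.4 and 98.6 CPM in control and 101, 88.2, 92.6 and 94.7 CPM in KO microglia (log2 fold change 0.04, SE 0.06). The membrane anchors Sdhc and Sdhd had log2 fold changes of -0.08 (SE 0.06) and -0.03 (SE 0.06). Sdhb, the iron-sulfur subunit, named after its values were seen, had one of 0.03 (SE 0.06), so that the 4 values lay between -0.08 and 0.04.

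Of complex III, Uqcrh had the second largest rise of the nuclear genes. It encodes the hinge protein, which helps cytochrome c1 and cytochrome c to meet. Its level was 245, 228, 226 and 217 CPM in control mice and 449, 424, 524 and 505 CPM in KO mice, which did not overlap (log2 fold change 1.05, SE 0.08, edgeR adjusted p = 1.79e-06). The small subunit genes Uqcr10 (99.4 to 104 and 126 to 162 CPM) and Uqcr11 (123 to 134 and 146 to 181 CPM) rose by 0.50 (SE 0.08) and 0.35 (SE 0.07) on the log2 scale. Uqcrc1, which encodes a large core protein on the matrix side, went the other way, with 57.0, 50.2, 54.9 and 54.0 CPM in control and 48.7, 43.7, 38.1 and 43.5 CPM in KO mice (log2 fold change -0.31, SE 0.08, edgeR adjusted p = 0.00843). Its partner Uqcrc2 and the Rieske protein gene Uqcrfs1, both named after their values were seen, had log2 fold changes of -0.02 and 0.09 and did not pass.

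Complex IV had 11 risen genes and no fallen one among the 14 tested. Cox8a was at 417, 384, 411 and 388 CPM in control mice and 605, 595, 711 and 690 CPM in KO mice (log2 fold change 0.70, SE 0.07, edgeR adjusted p = 1.77e-05). Cox4i1, the common form of the subunit that senses ATP and ADP, was at 389 to 425 CPM and 574 to 667 CPM (log2 fold change 0.62, SE 0.06). Cox7a2l was at 195, 185, 193 and 179 CPM against 292, 274, 331 and 303 CPM (log2 fold change 0.67, SE 0.07, edgeR adjusted p = 1.42e-05). Its relative Cox7a2 rose by 0.40 (SE 0.05), Cox6b1 by 0.49 (SE 0.06) and Cox6a1 by 0.42 (SE 0.05). Ndufa4, a subunit of complex IV despite its name, is the exception in this group, with 238, 240, 245 and 224 CPM in control and 238, 241, 234 and 234 CPM in KO mice (log2 fold change 0.00, SE 0.05, edgeR adjusted p = 0.993).

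Some complex IV subunits have isoforms that are restricted to particular tissues. Cox6a2, the isoform known from heart and skeletal muscle, had the largest log2 fold change of all 106 genes. It was at 11.2, 10.5, 12.1 and 7.54 CPM in control microglia and at 46.6, 43.7, 102 and 68.9 CPM in KO microglia, from 339 and 2572 UMIs in all. All KO mice lay above all control mice, but the KO mice spread widely (log2 fold change 2.68, SE 0.28, edgeR adjusted p = 2.52e-05). Over the alternatives, the log2 fold change ran from 2.38, without KO replicate 3, to 3.42, with 10% of the UMIs subtracted in the proportions of empty droplets, and the call was kept in each. In the cluster led by hemoglobin genes, left out of these sums, KO mice held 4.81 to 15.7 CPM of Cox6a2 (by total UMIs, 42 UMIs in all). Counted likewise, Cox6a2 was at 46.4 CPM in empty droplets. Monocyte-like cells held 0 to 114 CPM in control mice (27 UMIs) and 0 to 39.4 CPM in KO mice (19 UMIs). B cell-like cells of 2 control mice held 23.2 and 108 CPM (5 UMIs). Macrophages at the borders of the brain held 0 to 7.69 CPM in control and 0 to 11.6 CPM in KO mice. The common isoform Cox6a1 was at 107 to 115 CPM in control and 142 to 157 CPM in KO mice. Of the other restricted isoforms, Cox6b2, known from testis, did not pass (2.04 to 3.23 CPM and 2.67 to 4.02 CPM), and the 6 nuclear genes without a test were Cox4i2, with 8 UMIs over all control and 14 over all KO microglia, Cox7a1 with 17 and 35, Cox7b2 with 1 and 1, and Cox8b, Cox8c and Ndufa4l2 with 0 in both. At these depths a count of 0 does not show that a gene is silent.

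**Figure D4:**
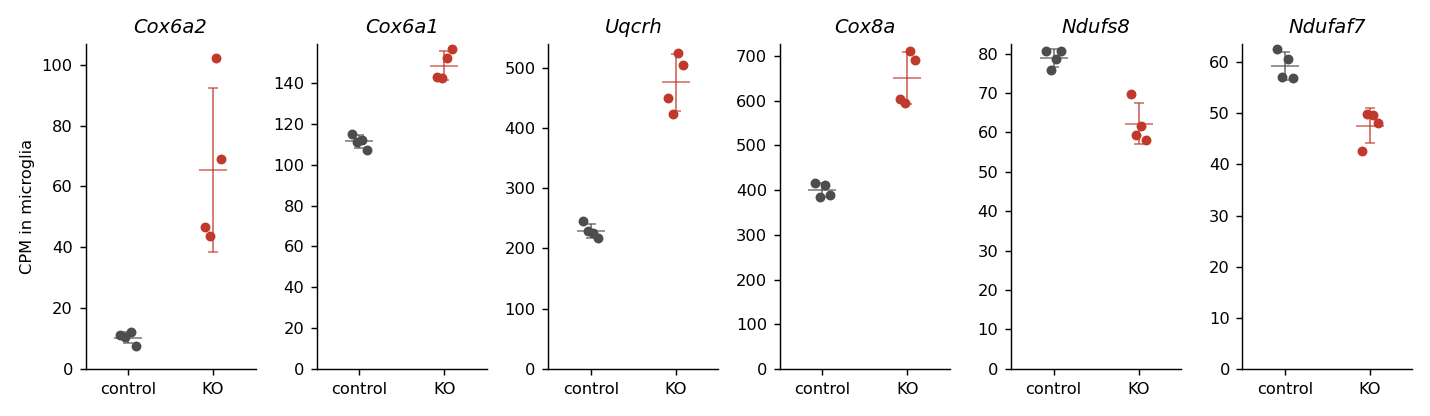
CPM per mouse in control and KO microglia for Cox6a2, Cox6a1, Uqcrh, Cox8a, Ndufs8 and Ndufaf7, with mean ± SD (n = 4 each). The KO mice lie above the control mice for Cox6a2, Cox6a1, Uqcrh and Cox8a and below them for Ndufs8 and Ndufaf7.

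In complex V, Atp5a1 (log2 fold change -0.06) and Atp5b (0.12), which encode the alpha and beta subunits of the soluble part, did not pass the test. Atp5c1 (0.22), Atp5d (0.24) and Atp5e (0.40), also of the soluble part, rose. These genes were named after their values were seen. The genes with the lowest p-values encode parts in the membrane. Atp5l, subunit g of the membrane part, was at 193, 195, 197 and 191 CPM in control and 266, 258, 281 and 284 CPM in KO mice (log2 fold change 0.49, SE 0.05, edgeR adjusted p = 2.27e-05). Atp5mpl, a small membrane subunit, was at 97.1 to 112 CPM and 147 to 178 CPM (log2 fold change 0.61, SE 0.07). Atp5g2, one of the genes for the ring of c subunits, was at 284 to 307 CPM and 389 to 463 CPM (log2 fold change 0.52, SE 0.07). Atp5g1 and Atp5g3, which encode the same mature c subunit and were also named after their values were seen, had log2 fold changes of 0.06 and 0.18 and did not pass.

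The 8 Ndufaf genes went both ways. Ndufaf7, a methyltransferase of complex I assembly, was at 62.6, 57.2, 60.5 and 56.9 CPM in control mice and 42.7, 49.9, 49.7 and 48.1 CPM in KO mice (log2 fold change -0.31, SE 0.07, edgeR adjusted p = 0.00292). Ndufaf4, a factor of early assembly, was at 32.2 to 36.7 CPM and 28.1 to 31.0 CPM (log2 fold change -0.25, SE 0.07, edgeR adjusted p = 0.0126). Ndufaf6 and Ndufaf8 were higher in KO mice, by 0.40 (SE 0.07) and 0.21 (SE 0.06) on the log2 scale. The other 4 did not pass.

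Of the X-linked members, Ndufa1 was at 73.6, 68.5, 70.0 and 68.7 CPM in control and 87.7, 93.8, 117 and 117 CPM in KO mice (log2 fold change 0.57, SE 0.09, edgeR adjusted p = 0.000621). KO replicate 1, the only mouse with a high level of Xist (1409 CPM in microglia, against a median of 10.3 CPM over the KO mice), had the lowest Ndufa1 level of the KO mice. Cox7b rose by 0.29 (SE 0.05), and Ndufb11 did not pass (log2 fold change 0.11, SE 0.06, edgeR adjusted p = 0.172).

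Nuclear encoded genes of this pathway are known to be bound by the factors NRF1, ETS factors such as GABPA, YY1 and estrogen-related receptors. In RefSeq, 75 of the 93 nuclear genes had a promoter window of 300 bases (250 before and 50 after the start, GRCm38.p6). The NRF1 motif (GCGC, any base, TGCGC) stood in 24.0% of these windows and in 4.78% of all 27025 windows, CCGGAAG (ETS) in 24.0% and 9.12%, AAGATGGCG (YY1) in 9.33% and 1.495%, and AAGGTCA (estrogen-related receptors) in 10.7% and 4.66%. Both strands were searched, and the AAG that ends the ETS motif can also begin the YY1 or the estrogen-related receptor motif. Among the windows of genes that rose in microglia, 11 of 32 held the ETS motif and 6 of 32 the NRF1 motif; among those that fell, 1 of 6 and 2 of 6; among those that did not pass, 6 of 34 and 10 of 34. A match in these letters is not a binding site. The 120 bases before the start are shown for genes of each kind: Uqcrh, Uqcr11 and Cox6a1, which rose, Sdhd, which did not pass, and Ndufaf4, which fell. They are written 5′ to 3′ on the strand of the gene, with the NRF1 and ETS motifs in capitals.
Uqcrh, chr4:116075072-116075191, - strand: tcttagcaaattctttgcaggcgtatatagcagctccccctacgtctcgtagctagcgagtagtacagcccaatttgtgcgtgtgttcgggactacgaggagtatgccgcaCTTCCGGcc
Uqcr11, chr10:80406831-80406950, - strand: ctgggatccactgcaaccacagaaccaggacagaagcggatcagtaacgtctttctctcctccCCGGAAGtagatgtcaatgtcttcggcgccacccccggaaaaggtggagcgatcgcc
Cox6a1, chr5:115348982-115349101, - strand: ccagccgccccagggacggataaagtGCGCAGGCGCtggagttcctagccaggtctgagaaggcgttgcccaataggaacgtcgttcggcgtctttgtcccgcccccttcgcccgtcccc
Sdhd, chr9:50603850-50603969, - strand: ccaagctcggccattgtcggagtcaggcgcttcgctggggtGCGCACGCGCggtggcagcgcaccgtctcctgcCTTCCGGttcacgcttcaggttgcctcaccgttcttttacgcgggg
Ndufaf4, chr4:24897963-24898082, + strand: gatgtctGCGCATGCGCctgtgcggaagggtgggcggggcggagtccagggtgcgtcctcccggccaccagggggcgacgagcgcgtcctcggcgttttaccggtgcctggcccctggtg

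Other genes of mitochondrial respiration were counted in the same fit. Of 14 genes for electron carriers and adenine nucleotide exchange, 2 rose and 4 fell, with a median log2 fold change of -0.06. Gpd2, which feeds electrons from glycerol 3-phosphate into the chain, was at 7.01, 9.08, 7.76 and 8.76 CPM in control and 27.0, 20.4, 25.1 and 32.2 CPM in KO microglia (log2 fold change 1.66, SE 0.15, edgeR adjusted p = 7.15e-06). Of 36 assembly genes outside the names used here, 2 rose and 6 fell (median -0.09), among them Sdhaf1, an assembly factor of complex II (log2 fold change -0.74, SE 0.10, edgeR adjusted p = 0.000111), and Sco1, a copper chaperone of complex IV whose groups of mice overlapped (log2 fold change -0.62, SE 0.20, edgeR adjusted p = 0.0259).

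Of 29 tested genes for mitochondrial gene expression and biogenesis, 3 rose and 5 fell (median -0.08). Ppargc1b, a coactivator of nuclear genes for mitochondria, was at 4.90 to 6.29 CPM in control and 14.3 to 20.9 CPM in KO mice (log2 fold change 1.66, SE 0.15, edgeR adjusted p = 8.89e-06). Slirp, whose product stabilises mitochondrial messenger RNAs together with Lrpprc, rose by 0.51 (SE 0.08). Of 78 mitochondrial ribosomal protein genes, 8 rose and 20 fell (median -0.08). Of 18 genes of the citric acid cycle and of pyruvate dehydrogenase, 1 rose and 5 fell (median -0.13), and Idh2, the NADP-dependent isocitrate dehydrogenase of mitochondria, had the largest fall of all these lists. It was at 95.5, 87.1, 94.1 and 93.2 CPM in control and 27.5, 31.3, 23.2 and 30.5 CPM in KO mice (log2 fold change -1.72, SE 0.09, edgeR adjusted p = 2.52e-07). Against 22.4% higher and 22.8% lower among all genes, fewer genes rose than fell in each of these 5 lists.

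T cells share the tissue, the sort and the library with microglia, while Cx3cr1, from which Cre is driven, is mainly a gene of myeloid cells and of some lymphocytes. Their mitochondrial share was 1.15, 1.13, 1.32 and 1.35% of UMIs in control mice and 1.44, 1.49, 1.39 and 1.42% in KO mice. The groups did not overlap, and the means, 1.237% ± 0.116 and 1.437% ± 0.041 (SD, n = 4 each), differed by 0.200 percentage points. Their nuclear share was 1.77, 1.71, 1.90 and 1.70% in control and 1.91, 1.73, 1.95 and 1.88% in KO mice, which overlapped. These sums are small, with 117166 to 278340 UMIs per mouse against 4189469 to 10868470 in microglia. Microglial RNA was present in them: the microglia markers, of which microglia themselves held 3.30 to 4.57%, took 1.43 to 1.78% of the T cell UMIs in control and 1.104 to 1.351% in KO mice, while C1qa, C1qb and C1qc took 0.602 to 0.855% and 0.655 to 0.844%. Its part in the T cell values was not tested.

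Of the 11 mitochondrially encoded genes tested in T cells, 1 passed, with a higher level in KO mice, against 3.88% of the 4204 genes tested (1.43% higher and 2.45% lower). mt-Cytb was at 1753, 2101, 2444 and 2217 CPM in control and 2813, 2955, 2795 and 2786 CPM in KO mice (log2 fold change 0.41, SE 0.11, edgeR adjusted p = 0.0305). The groups did not overlap, but the call was lost in 12 of 17 alternatives, 7 of which left out a single mouse (control replicate 1, 2 or 4, or any KO mouse), with log2 fold changes from 0.29 to 0.48 and adjusted p from 0.00891 to 0.546. Without control replicate 3, mt-Cytb and mt-Co1 both passed. mt-Co1 was at 2136, 1963, 2498 and 2095 CPM against 2557, 2769, 2740 and 2906 CPM, which did not overlap either (log2 fold change 0.33, SE 0.11, edgeR adjusted p = 0.0841). In mt-Atp6, mt-Co2 and mt-Co3 the KO mice also lay above the control mice, with log2 fold changes of 0.30, 0.28 and 0.27, while mt-Nd4 (0.35) and mt-Nd4l (0.24) overlapped. The share of all T cell genes without overlap was not counted. With a T cell receptor or CD3 UMI and no Ncr1 UMI required of each cell, mt-Atp6, mt-Co2 and mt-Co3 were at 0.11, 0.13 and 0.14. There, mt-Co1 and mt-Cytb were at 0.28 and 0.29. None of mt-Atp6, mt-Co2, mt-Co3, mt-Nd4 and mt-Nd4l passed the test. The median over the 11 genes was 0.27, against 0.03 over all genes. The genes mt-Nd1, mt-Nd2, mt-Nd3 and mt-Nd5 had values of -0.05, 0.02, -0.03 and -0.39 and overlapped between groups. mt-Atp8 (7 UMIs in each genotype) and mt-Nd6 (5 and 6 UMIs) were too scarce to be tested.

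Of the 75 nuclear encoded genes tested in T cells none passed (edgeR, lowest adjusted p 0.136, for Cox4i1), and their median log2 fold change was 0.13, against 0.03 over all genes. Cox4i1 was at 671, 696, 730 and 601 CPM in control and 946, 797, 989 and 808 CPM in KO mice, without overlap (log2 fold change 0.39, SE 0.14). Uqcrh stood at 805, 715, 734 and 615 CPM in control T cells and 878, 719, 738 and 791 CPM in KO T cells, so the groups overlapped (log2 fold change 0.13, SE 0.14, edgeR adjusted p = 0.777). Cox6a2 had 3 UMIs in control and 27 in KO T cells (0 to 6.54 and 8.41 to 50.3 CPM by total UMIs) and was not tested.

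Because a call in one cell type and none in the other does not show that they differ, the difference between the genotype effects was tested itself, in 1 fit of both cell types of all mice. The effect was larger in microglia for 10 of the 13 mitochondrially encoded genes and smaller for none, against 2.41% of all 11346 genes called, 1.93% with a larger and 0.485% with a smaller effect. For mt-Co1 the difference was 1.07 on the log2 scale (SE 0.14, edgeR adjusted p = 8.97e-05), for mt-Co3 0.92 (SE 0.13), for mt-Co2 0.89 (SE 0.14), for mt-Atp6 0.83 (SE 0.13) and for mt-Cytb 0.81 (SE 0.14). These 5 genes, with mt-Nd5 (1.28, SE 0.25, edgeR adjusted p = 0.00455), kept their call with each single mouse left out. The 4 others, mt-Nd1 (0.76), mt-Nd2 (0.56), mt-Nd3 (0.92) and mt-Nd4 (0.59), lost it without control replicate 4 and likewise without KO replicate 4, which left 6 of the 10. mt-Atp8, mt-Nd4l and mt-Nd6 had differences of 1.06, 0.67 and 0.84 with wide errors and did not pass.

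Among 86 nuclear encoded genes, the difference was called for 3, all with the larger effect in microglia. An unadjusted edgeR p under 0.05 was found for 12 of the 86, against 1322 of all 11346 genes. Uqcrh differed by 0.88 (SE 0.14, edgeR adjusted p = 0.000797). Cox6b1 differed by 0.72 (SE 0.16, edgeR adjusted p = 0.0109): in microglia it was at 209, 204, 198 and 188 CPM in control and 289, 250, 289 and 295 CPM in KO mice, and in T cells at 469, 424, 546 and 472 CPM and 371, 364, 477 and 378 CPM. Atp5l differed by 0.52 (SE 0.14, edgeR adjusted p = 0.0482), a call that was lost without any one of the control mice or KO replicate 3 and without the filter on low counts. The median difference was 0.03 over the nuclear genes and 0.84 over the mitochondrially encoded ones.

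In other cell classes the values are given as a description, since cells were assigned to classes by their expression. In CAM-like cells (macrophages at the borders of the brain), the mitochondrial share was 1.02 to 1.52% in control and 1.11 to 1.68% in KO mice, and in monocyte-like cells 0.963 to 1.19% and 0.955 to 1.31%; both overlapped. Control microglia, at 0.540 to 0.595%, thus held the lowest mitochondrial share of the classes with cells of all 4 mice in each genotype, and KO microglia, at 1.06 to 1.27%, reached the range of CAM-like cells and monocyte-like cells. The nuclear share of microglia stayed below that of monocyte-like cells (2.03 to 2.43% in control and 1.77 to 2.31% in KO mice) in both genotypes. In empty droplets of the pool, which hold free RNA of all mice, 0.839% of 6848195 UMIs were mitochondrial and 1.75% nuclear encoded. Each class has its own depth and share of free RNA, and classes were not tested against each other.

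Microglia-like cells were clustered again without any of the 106 genes, so that the shares below had no part in forming the clusters. Of the 11 clusters, 4 were made up almost wholly of control cells (1.61 to 3.30% KO cells) and the other 7 mostly of KO cells (82.8 to 99.6%). The control clusters, led by Csmd3, Ecscr and related genes, had mitochondrial shares of 0.425 to 0.713% in control mice. The few KO cells that fell into them, summed where a mouse had at least 10, had 0.429 to 0.788%, in or near the range of the control cells beside them. They came from KO replicate 2 (19 to 31 cells per cluster), besides 11 cells of KO replicate 3. Their Arpc4 level was 155 to 252 CPM, from 12 to 26 UMIs per sum, against 198 to 356 CPM in the control cells of these clusters. KO replicate 2 lay below every control mouse of the same cluster. The 11 cells of KO replicate 3, at 221 CPM, lay above the 198 to 213 CPM of the control cells beside them. In the largest KO cluster, Arpc4 was at 118 to 136 CPM in KO cells and 122 to 169 CPM in control cells, which overlapped. In that cluster, led by Tafa1 and Ctnna3, KO replicates 2, 3 and 4 were at 1.07, 1.13 and 1.14%, above all control mice, whose 92 cells were at 0.698 to 0.941% per mouse. KO replicate 1 gave it only 43 cells, at 0.872%. Most cells of this mouse lay in another cluster, led by Xist and Fn1 and 99.6% KO. Its 1639 cells there, of 1684 KO cells from mice with at least 10, were at 1.16%. In the Tafa1-led cluster, median UMIs per cell were 8943 to 10185 in the control cells of each mouse and 9232 in KO replicate 1. They were 4798 to 5305 in KO replicates 2, 3 and 4. Doublets were not removed, and their part in these values was not tested. Cox6a2 stood at 29.4 to 55.5 CPM per mouse in those control cells, from 43 UMIs in all, at 40.4 to 70.7 CPM in the KO cells beside them and at 4.24 to 20.4 CPM in the control cells of the 4 control clusters.

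Shares differed among the clusters of KO cells as well. The cluster led by Spp1, Lgals3, Cxcl13 and Cst7, genes of reactive microglia, had the highest mitochondrial share, 1.78 to 2.87% over the 4 KO mice, with ribosomal protein genes at 20.1 to 23.9%. Its 30 control cells, from 2 mice, were at 0.843 and 1.32%, with ribosomal protein genes at 18.2 and 18.9%. A further cluster, led by Tafa1, Ctnna3, Cxcl13 and Cst7 and 98.3% KO, was at 1.41 to 1.64% in the 4 KO mice. Its 12 cells of control replicate 4 were at 1.28%. The cluster led by Ccl4 and Spp1 was at 1.18 to 1.37% in KO mice and 0.577 to 0.939% in control mice, which did not overlap. The cluster led by interferon-induced genes such as Cxcl10 and Ifit3 was at 0.994 to 1.22% in KO mice. A cluster of 546 cells led by Arhgap15 and Bank1, of which 82.8% were KO cells, differed from these: its 448 KO cells, 343 of them from KO replicate 2 and the rest from 2 other mice, were at 0.668 to 0.749%, over the 0.571 to 0.726% of its control cells, with which they overlapped. Cox6a2 was also low there, at 0 to 18.5 CPM from 29 UMIs in KO cells and 0 to 17.2 CPM from 5 UMIs in control cells, while Arpc4 was at 160 to 177 CPM in KO and 150 to 254 CPM in control cells. Mitochondrial shares near those of control cells were thus also found in KO cells, in this cluster and in the control clusters, mostly in cells of KO replicate 2. Conversely, small sums of control replicate 4 in KO clusters, of 12 and 17 cells, were at 1.28 and 1.32%. KO microglia as a whole were at 1.06 to 1.27%. In the KO cells of the cluster led by Spp1 and Lgals3, where the share was highest, Arpc4 was at 131 to 231 CPM. Its control cells, from 2 mice, were at 292 and 294 CPM. Whether Arpc4 and the share go together was not tested. No test was made between clusters, which share mice and a library.

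**Figure D5:**
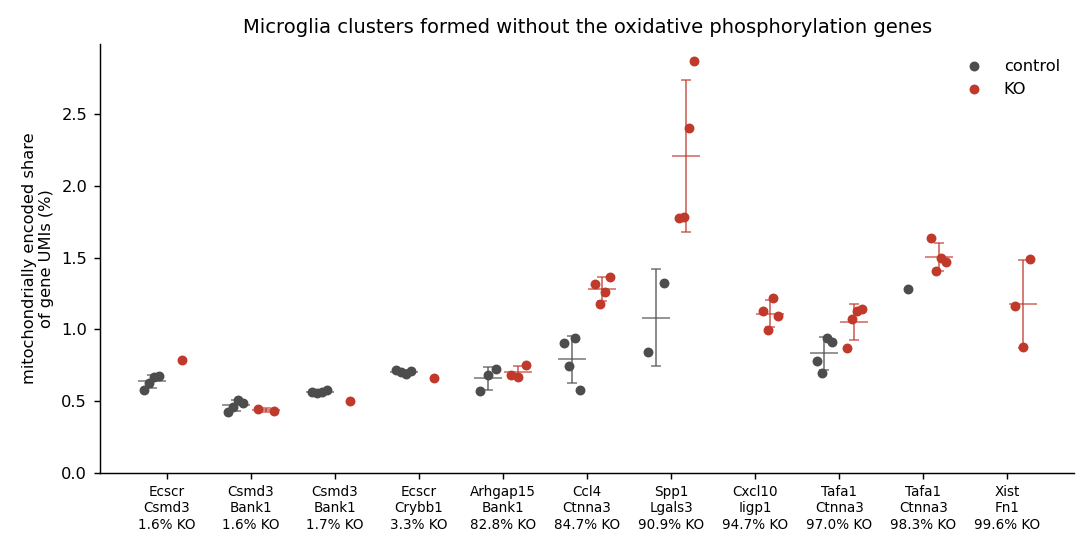
Percent of UMIs on the mitochondrially encoded genes per mouse with at least 10 cells (points), in each microglia cluster formed without the 106 genes, for control and KO mice, with mean ± SD and the percent of KO cells at each cluster. Clusters made up mostly of control cells lie at 0.425 to 0.788%, the cluster led by Spp1 and Lgals3 reaches 2.87% in KO mice, and the cluster led by Arhgap15 and Bank1 stays at 0.571 to 0.749% in both genotypes.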

How the data were processed

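Per the file headers and the study's methods, the authors aligned reads to mm10 with Cell Ranger 7.1.0, whereas the submitters' processing notes name version 6.1.2. The authors deposited raw UMI counts per gene and cell for each mouse and for the pool, not corrected for free RNA. Tags were left out of all totals. Cells with 200 or more genes and no more than 20% mitochondrial UMIs were clustered with Seurat 5.3.0 (10000 variable genes, 20 components, 20 neighbours, Louvain resolution 0.8), and clusters were named from marker lists. Clusters of low UMI count and 1 cluster led by hemoglobin genes stayed unnamed. Scrublet, in scanpy 1.11.5, marked 0 of 19863 cells as doublets and therefore had not worked, so doublets were not removed.

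Counts were summed per mouse and class (at least 10 cells) and compared with edgeR 4.0.16 in R 4.3.3 (quasi-likelihood test after filterByExpr and TMM scaling; threshold 0.05 after Benjamini-Hochberg adjustment over all genes tested), on all 4 control and 4 KO mice. Tested on simulated data, the fits recovered most of the known changes within microglia and within T cells, but few of those in the difference between the cell types, so that a gene without a call there may still differ. In the fit of both cell types, sums of 1 mouse come in pairs, known from the tables, and blocking on the mouse was tried as an alternative, as were DESeq2 1.42.0, other filters, other cells, another clustering and each mouse left out. The named genes are all mitochondrially encoded genes, the 3 lowest adjusted p in each complex, the 5 largest rises and falls without overlap, tissue-restricted isoforms and their partners, X-linked members and the 3 largest rises and falls of the other lists; genes named outside this rule are marked, and 1 gene is not reported here. The members and all lists were chosen with earlier results of these data known. Totals per mouse limit the precision, and UMI counts carry counting error besides the spread between mice. The authors' ambient RNA correction and bulk data were not used here.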

Additional observations from a re-analysis of the deposited data

Results flagged for a closer look

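In 4 of the 116 groups of 4 mice looked at, 1 mouse stood far from the other three by Dixon's test, at a limit that chance alone passes in about 1 of 20 groups. In microglia, control replicate 3 had 59.8 CPM of Sdhc, against 53.4 to 54.4 CPM in the other control mice, and 47.9 CPM of Sdhd, against 44.7 to 44.9 CPM. KO replicate 2 had 250 CPM of Cox6b1 in microglia, against 289 to 295 CPM in the other KO mice, and 2955 CPM of mt-Cytb in T cells, against 2786 to 2813 CPM.

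The test of the difference between the genotype effects in microglia and in T cells picked out 13 genes, all with the larger effect in microglia (edgeR, log2 scale). The differences were 1.28 for mt-Nd5, 1.07 for mt-Co1, 0.92 for mt-Co3, 0.92 for mt-Nd3, 0.89 for mt-Co2, 0.88 for Uqcrh, 0.83 for mt-Atp6, 0.81 for mt-Cytb, 0.76 for mt-Nd1, 0.72 for Cox6b1, 0.59 for mt-Nd4, 0.56 for mt-Nd2 and 0.52 for Atp5l.

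In cells left out of the comparisons, the mitochondrial share was also higher in KO mice. In the clusters of low UMI count it was 2.38 to 2.86% in KO mice (mean 2.54%) and 0.989 to 1.25% in control mice, with nuclear shares of 0.399 to 0.508% and 0.391 to 0.440%. In the cluster led by hemoglobin genes it was 1.18 to 1.52% in KO mice (mean 1.31%) and 0.982% in the 1 control mouse with at least 10 such cells. Neither difference was tested.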

How the results depend on the processing

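Of 194 alternatives to counts and shares, 175 left the value in place (counts within 1.5 times, shares within 1 SD), and of 1298 alternatives to single genes, 1232 left direction and call in place. All 13 mitochondrially encoded genes rose in microglia under every alternative that holds them. The 1 such gene called in T cells became 0 with DESeq2, without the filter on low counts, with a T cell receptor or CD3 UMI and no Ncr1 UMI required of each cell, and without cells of over 3 times the median UMIs, and 0 to 2 with a mouse left out. The numbers of the mice pair nothing (correlations of -0.07 to 0.01 between mice of the same number), and with the replicate block this count was also 0, with 2642 genes higher and 2683 lower in microglia. Without the filter on low counts, 1 nuclear gene was called in T cells in place of 0. The difference between cell types was called for 6 to 10 mitochondrially encoded genes with a mouse left out, 6 without control replicate 4 and 6 without KO replicate 4, and for 5 nuclear genes in place of 3 with DESeq2. The difference in nuclear share was 0.188 points in microglia at clustering resolution 0.4, and in T cells it turned to -0.046 points with a T cell receptor or CD3 UMI required. With a mouse left out, shares differed by 0.589 to 0.660 (mitochondrial) and 0.134 to 0.165 points (nuclear) in microglia and by 0.163 to 0.239 and 0.068 to 0.143 points in T cells. Values about 0 changed sign. Ndufa4 had a log2 fold change of -0.0025 without the filter, -0.012 with the hemoglobin-led cluster, -0.0067 without cells of over 3 times the median UMIs, -0.0074 with free RNA subtracted and -0.028 to 0.015 with a mouse left out. At resolution 0.4, Sdha was at -0.0068 and Sdhd at 0.0063. In T cells, mt-Nd2 was at -0.17 with a T cell receptor or CD3 UMI required and at -0.0005 without cells of over 3 times the median UMIs, and with a mouse left out mt-Nd1 ran from -0.204 to 0.083, mt-Nd2 from -0.0805 to 0.0965 and mt-Nd3 from -0.21 to 0.11. Over all genes, the difference between cell types was called for 348 higher and 73 lower with DESeq2, against 219 and 55, and its median moved from 0.01 to 0.12 without KO replicate 4 and to 0.10 with free RNA subtracted. With a mouse left out, it was called for 147 to 277 genes higher and 26 to 47 lower. The lower calls numbered 35 without control replicate 1 and likewise without control replicate 3, 29 without control replicate 2 and likewise without control replicate 4, 31 without KO replicate 3 and 26 without KO replicate 4. In T cells, 40 to 71 genes were higher and 64 to 115 lower with a mouse left out (64 without control replicate 2). There, 126 and 156 genes were called without the filter, against 60 and 103, and 42 and 40 with a T cell receptor or CD3 UMI required. The cause of these changes was not tested. The hemoglobin-led cluster and the limit on cells of high UMI count were added after seeing the data. The planned removal of doublets could not be made, since no cell was marked. T cell sums, of a small part of the microglial depth, limit what could be detected there.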

Other observations

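Some classes held enough cells of only a few mice. In B cell-like cells the mitochondrial share was 1.79 and 2.23% in 2 control mice and 1.70% in 1 KO mouse, and in granulocyte-like cells it was 0.395% in 1 control and 0.454% in 1 KO mouse. In proliferating cells it was 0.968 to 1.25% in 3 control mice and 0.695 to 1.34% in 4 KO mice, with nuclear shares of 2.45 to 2.60% and 1.42 to 2.33%. The nuclear share of B cell-like cells was 2.02 and 2.84% in 2 control mice and 1.67% in 1 KO mouse.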
